A study of Danio rerio with 25 samples.

Results

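The genes described here had a transient peak on day 5 of a dexamethasone course in zebrafish larvae. For each gene, counts were turned into CPM (the gene's count divided by the library total, times 1000000). A gene was a member when every Day 5 (D5) library held at least 5 CPM and when, within each of the letters a, b and c in the column names, D5 was at least 1.5 times both Day 3 (D3) and Day 7 (D7). This rule found 55 genes of 32520 in the table, where 12762 genes reached 5 CPM in all 3 D5 libraries. The members were thus chosen by their D3, D5 and D7 levels, which are given as a description and carry no test. Comparisons that the rule did not use are Day 6 (D6) against Day 4 (D4), and cdkn1a crispants against wild type (WT).

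The larvae carried Tg(Ola.Sp7:nlsGFP), in which a medaka Sp7 promoter drives nuclear GFP in osteoblasts, and were incubated in 10 µM dexamethasone (DEX), a synthetic glucocorticoid, from D3. RNA came from whole larvae, with 3 libraries on each of the 5 days D3, D4, D5, D6 and D7, counted in the methods as days after fertilisation. Every library of the course is labelled as DEX-treated and vehicle-treated larvae of the same days were not analysed here, so a change over the days cannot be told apart from normal development. Another table held 5 cdkn1a crispants and 5 WT larvae samples. Crispants are mosaic F0 fish injected with Cas9 protein and 4 pooled sgRNAs against the start of exon 2 of cdkn1a, the gene for the cell cycle inhibitor p21; the labels of this table give no day and no DEX, and the methods name the same 5 days for the RNA-seq as a whole without tying a day to a library. Nothing says that libraries came from separate clutches, so p-values measure the spread between these libraries, which may be technical.

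Totals ran from 13685297 to 21812411 counts in the DEX course and from 30330699 to 38467088 counts in the crispant table. For the members, letter c stood apart from a and b on some days. Member genes were highest in letter c on D3 for 44 of 55 genes, lowest in letter c on D6 for 36 and lowest in letter c on D7 for 34. On D4 letter c was highest for 20 and lowest for 28, and on D5 highest for 15 and lowest for 30. The shares over all genes were not taken. In the crispant table the first principal component, with 51.8% of the variance, split the libraries into a first set of 3 crispants and 3 WT and a second set of 2 crispants and 2 WT. These sets were found in the data and are not groups of the study. The targeted gene, cdkn1a, had 8.44, 9.98 and 8.18 CPM in crispants of the first set against 17.8, 18.0 and 20.5 CPM in WT, and 1.68 and 1.72 CPM in crispants of the second set against 3.69 and 4.70 CPM in WT. It was lower in crispants within each set, but not past the threshold over all 10 libraries (log2 fold change -1.12, SE 0.62, adjusted p = 0.529 by edgeR's quasi-likelihood test with Benjamini-Hochberg adjustment). In whole larvae, fewer cells of a type and less RNA per cell cannot be told apart.

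As background, cholesterol is built from acetyl-CoA through the mevalonate pathway. Later steps give lanosterol, and CYP51A1, a P450 enzyme that draws electrons from the reductase POR, and MSMO1, an oxidase of another kind, take off its extra methyl groups. The transcription factor SREBF2 turns these genes on together when cell sterol is low. Glucocorticoids act on the liver, skeletal muscle and intestine of vertebrates, where they raise amino acid breakdown and glucose output. The larval intestine and liver also mature over these days.

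Of the 55 members, 51 had a name, 14 of these only a clone or zgc name, and 4 were known by Ensembl identifier alone. By what the named genes are known to do, 8 fell under sterol and lipid synthesis, 8 under muscle, 8 under intestine, liver and amino acid metabolism, 6 under immune and extracellular genes and 7 under other roles, and 18 were left without a role. These groups were formed after the members were known and carry no test. The average D5 level was 1.85 to 47.9 times that of D3, with a median of 4.38, and 1.55 to 9.77 times that of D7, with a median of 2.38.

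The peak was broad for many members. The mean was highest on D4 for 7 members, on D5 for 42 and on D6 for 6. When a neighbouring day was called raised at 1.5 times the D3 mean (for D4) or the D7 mean (for D6), 31 members were raised from D4 to D6, 16 on D4 and D5, 6 on D5 and D6 (odam, TIMP2, ENSDARG00000114451, spi1a, arpp21 and apoa4b.3) and 2 on D5 only (musk and OGDH). These classes do not set D4 against D7 or D6 against D3. THBS4, for example, counts as raised to D6, with a D6 mean of 6.40 CPM and a D3 mean of 7.98 CPM. D4 stood above both D3 and D7 in every letter for 33 of 55 members, and D6 did so for 25. No gene of the table was at least 1.5 times all 4 other days on D5 in every letter. The same rule applied to other days found 50 genes for D4, of which 19 were also day 5 members, and 4 genes for D6, all of them members. The opposite rule, with D5 below D3 and D7, found 2 genes. Among genes at the CPM floor, D3 held the highest mean for 38.4%, D4 for 15.4%, D5 for 7.97% (1017 genes), D6 for 17.8% and D7 for 20.5%.

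Summed over the 55 genes, letter a held 621, 2119, 2677, 1709 and 1066 CPM from D3 to D7. The sums for letter b were 556, 1761, 2763, 1870 and 1062 CPM. For letter c they were 926, 1947, 2414, 1948 and 773 CPM. In every letter the sum was highest on D5 and lowest on D3 or D7, with D4 and D6 in between. The genes nearest the threshold inside it were apoa4b.3, SLC13A5 and prss60.2, whose smallest ratios were 1.503, 1.507 and 1.510. Just outside were ADAMTS8 and PHKG1, at 1.477 and 1.471. PHKG1 acts in glycogen breakdown, as does the member phka1b.

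**Figure D1:**
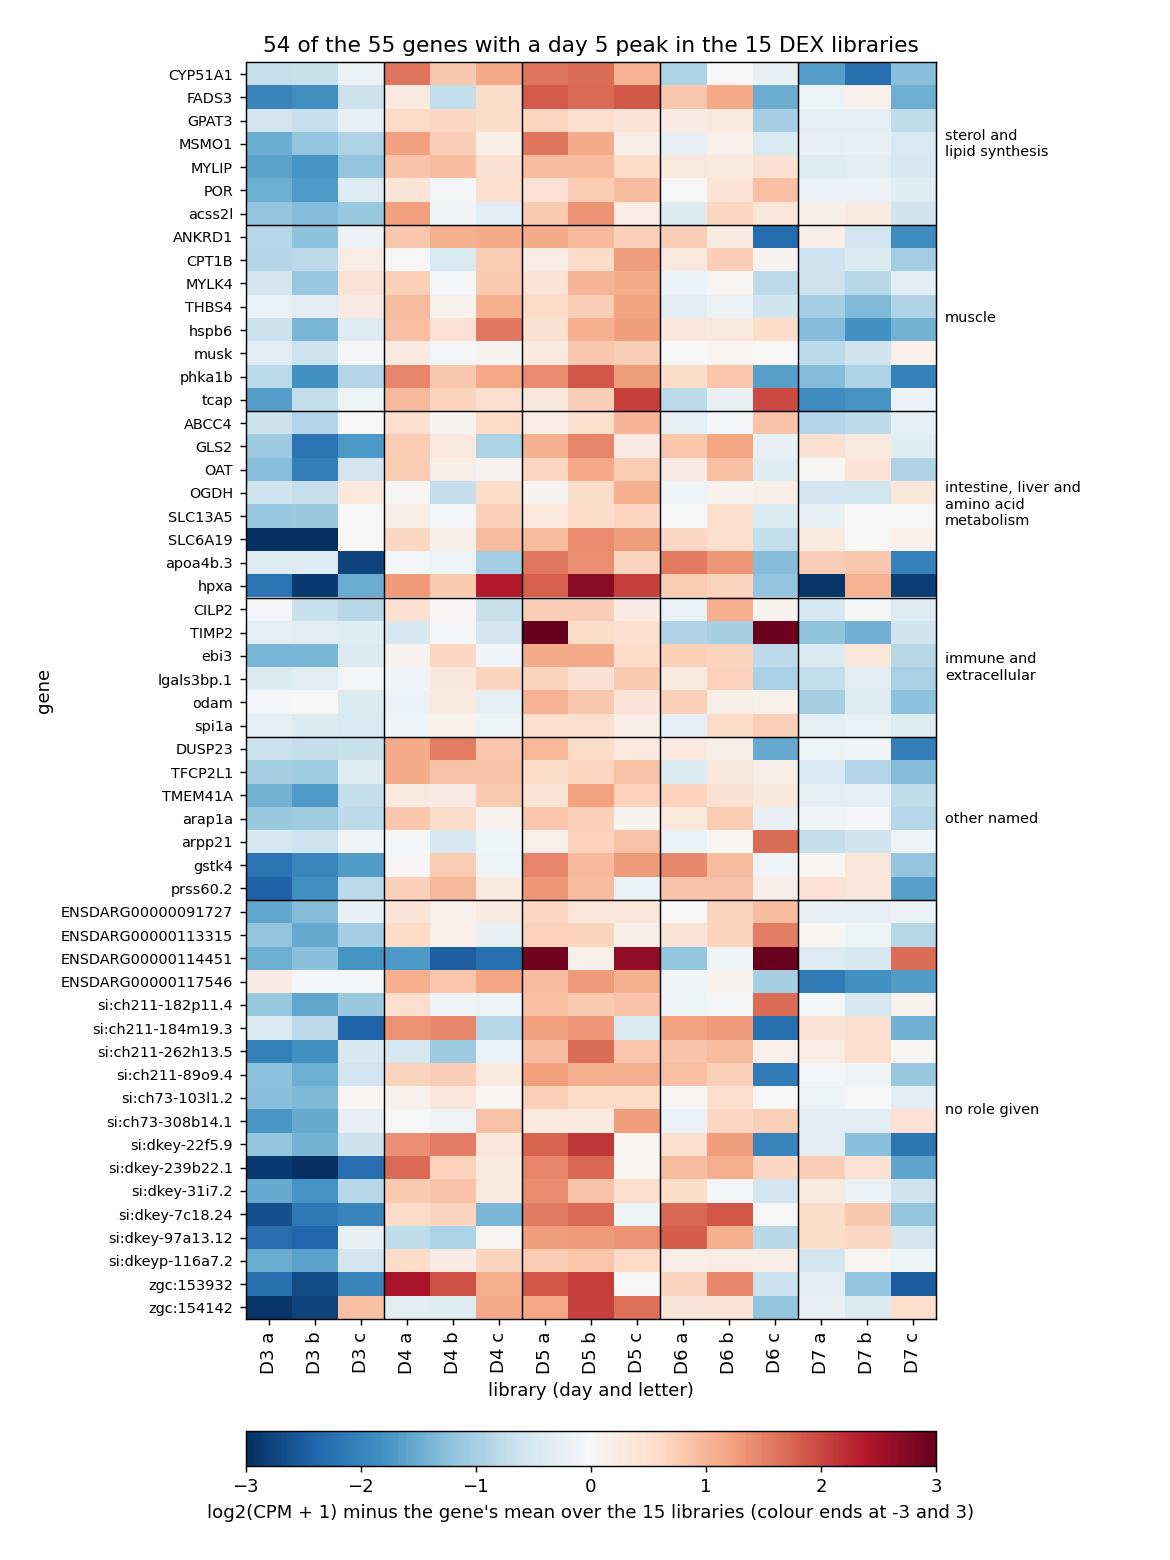
Levels of 54 of the 55 genes (rows, by role) in the 15 libraries of the DEX course (columns, D3 to D7, letters a, b and c), as log2(CPM + 1) minus the gene's mean over the 15 libraries, with red above and blue below the mean. Most rows are red from D4 to D6 and blue on D3 and D7, and the D6 c column differs from D6 a and b for many genes.

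Among the 8 sterol and lipid genes were CYP51A1 and MSMO1, enzymes of cholesterol synthesis. CYP51A1, the lanosterol demethylase, had 16.9, 17.2 and 24.8 CPM on D3 and 87.8, 49.3 and 62.5 CPM on D4. The values were 87.8, 91.1 and 58.8 CPM on D5, 14.0, 28.2 and 23.9 CPM on D6 and 8.16, 5.04 and 11.13 CPM on D7. Its D6 libraries all lay below its D4 libraries. MSMO1, the C4-methyl sterol oxidase of the next steps, had 10.3, 13.1 and 15.8 CPM on D3, 74.1, 52.3 and 35.8 CPM on D4 and 95.5, 67.9 and 35.3 CPM on D5. It had 25.9, 34.4 and 22.1 CPM on D6 and 25.8, 26.5 and 22.4 CPM on D7. D4 and D5 overlapped for MSMO1, and D6 and D7 overlapped. The lowest D4 or D5 library, at 35.3 CPM, stood only just above the highest D6 or D7 library, at 34.4 CPM.

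POR, which hands electrons to CYP51A1 and other microsomal P450 enzymes, was the most abundant member by mean D5 CPM: 54.0, 45.8 and 115 CPM on D3 and 199, 147 and 210 CPM on D4. Its values were 204, 256 and 294 CPM on D5, 151, 203 and 286 CPM on D6 and 133, 134 and 118 CPM on D7. MYLIP (IDOL), the ubiquitin ligase that in mammals removes the LDL receptor, had 11.6, 10.1 and 15.7 CPM on D3, 68.0, 72.2 and 51.1 CPM on D4 and 72.7, 72.4 and 56.0 CPM on D5, then 46.7, 46.1 and 51.2 CPM on D6 and 28.4, 29.3 and 26.6 CPM on D7. All D3 values of MYLIP lay below those of D7, and all D7 values below those of D4, D5 and D6.

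FADS3, of the fatty acid desaturase family, had 4.48, 5.00 and 12.7 CPM on D3, 24.7, 11.8 and 30.6 CPM on D4 and 76.4, 68.3 and 77.7 CPM on D5. Its levels were 36.7, 46.3 and 6.62 CPM on D6 and 18.4, 22.3 and 6.78 CPM on D7. FADS3 was the only gene of this group whose 3 D5 libraries stood above every library of the other days. GPAT3, which starts triglyceride synthesis, had day means of 37.4, 79.9, 76.1, 51.0 and 39.3 CPM from D3 to D7. The acetyl-CoA synthetase gene acss2l was low, with 1.15 to 1.41 CPM on D3, 8.07, 12.4 and 5.12 CPM on D5 and 2.48 to 5.33 CPM on D7.

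**Figure D2:**
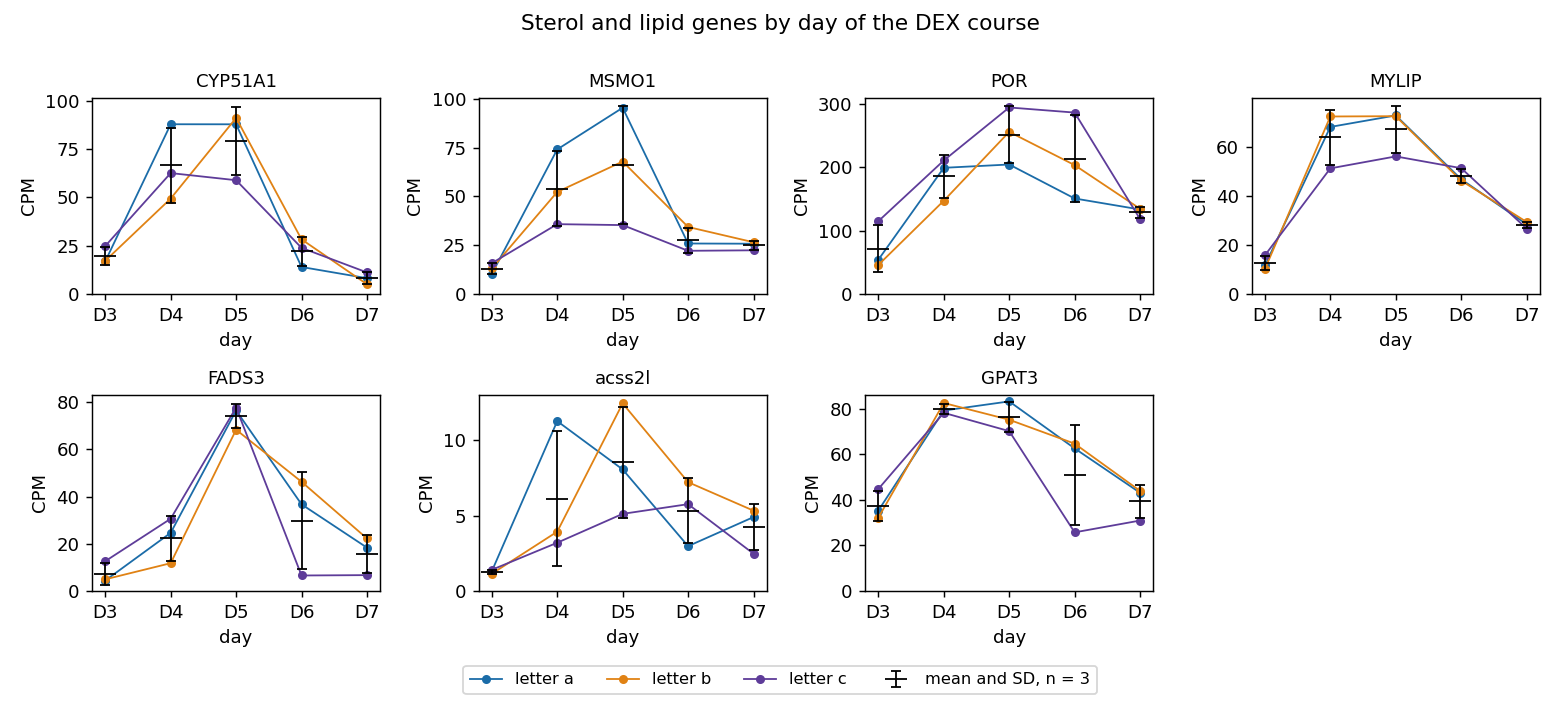
CPM of 7 of the sterol and lipid genes by day in the DEX course, with letters a, b and c as coloured points joined by letter and the day mean with its SD (n = 3) in black. D4 and D5 are the high days for CYP51A1, MSMO1 and GPAT3, while FADS3 is highest on D5 in all 3 letters.

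The 8 muscle genes covered the contractile apparatus, fuel use and the nerve contact. The gene phka1b, a regulatory subunit of phosphorylase kinase, which starts glycogen breakdown, had 7.77, 3.33 and 7.29 CPM on D3, 41.6, 26.0 and 33.1 CPM on D4 and 40.3, 55.2 and 35.8 CPM on D5. It had 21.5, 26.3 and 3.92 CPM on D6 and 5.27, 7.09 and 2.78 CPM on D7. D3 and D7 overlapped, and D6 c had come down to their level while D6 a and b had not.

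ANKRD1, a stretch-responsive titin-binding protein, had 50.8, 38.7 and 82.2 CPM on D3, 164, 194 and 201 CPM on D4 and 203, 182 and 152 CPM on D5. It had 156, 111 and 18.0 CPM on D6 and 106, 62.0 and 24.8 CPM on D7. The D6 c library was lower than every other library of the course. The titin cap gene tcap had 8.56, 17.2 and 26.3 CPM on D3, 57.8, 46.5 and 42.2 CPM on D4 and 36.8, 48.9 and 125 CPM on D5. It had 16.5, 24.8 and 117 CPM on D6 and 7.22, 7.75 and 25.4 CPM on D7, with letter c far above the others on D5 and D6.

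The small heat shock protein gene hspb6, abundant in muscle, had 29.1, 17.0 and 35.0 CPM on D3 and 87.5, 62.4 and 141 CPM on D4. It had 63.6, 99.3 and 111 CPM on D5, 59.15, 57.6 and 67.9 CPM on D6 and 18.0, 12.4 and 16.8 CPM on D7. CPT1B, which brings long fatty acids into muscle mitochondria, had 16.9, 18 and 37.6 CPM on D3, 37.3, 48.3 and 77.7 CPM on D5 and 20.6, 24.0 and 14.9 CPM on D7. Its D6 libraries, at 40.2, 53.7 and 33.7 CPM, overlapped D5. MYLK4, a myosin light chain kinase, THBS4, an extracellular protein of tendon and muscle attachments, and musk, the receptor kinase that gathers acetylcholine receptors at the synapse, peaked at lower levels, with D5 means of 32.2, 16.3 and 8.21 CPM.

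The marker list of skeletal muscle (24 genes, none a member, none at 0 in any library) did not share this shape in all letters. Its summed level was 60970, 57595 and 69731 CPM on D3, 51150, 65963 and 83330 CPM on D5 and 37847, 37145 and 80984 CPM on D7. In no letter did the sum reach 1.5 times D3 on D5. The muscle members were chosen to do so and the list was not, so this difference was fixed in advance. The part of muscle content in the peaks was not tested.

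Among the intestine, liver and amino acid genes, SLC6A19, the neutral amino acid transporter of the intestinal brush border, had 2.44, 2.76 and 28.8 CPM on D3 and 45.3, 33.0 and 57.1 CPM on D4. It had 56.9, 79.0 and 71.4 CPM on D5, 45.1, 42.7 and 17.0 CPM on D6 and 36.0, 29.1 and 31.8 CPM on D7. The D3 c library stood far above D3 a and b. The intestine marker list (15 genes, none a member, none at 0) did the same, with 260, 269 and 2492 CPM on D3, and held 2432, 2912 and 2676 CPM on D5 and 2462, 2242 and 910 CPM on D6. Its D7 sums were 2175, 1719 and 2202 CPM, so D5 stood above D7 by under 1.5 times in letters a and c. Whether intestine content carried the change in SLC6A19 was not tested.

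The apolipoprotein gene apoa4b.3, of a family that the intestine and yolk put on lipoproteins, had 47.9, 47.7 and 8.32 CPM on D3, 61.3, 55.9 and 29.6 CPM on D4 and 189, 166 and 101 CPM on D5. It had 187, 158 and 24.96 CPM on D6 and 105, 110 and 14.6 CPM on D7. Letter c was lowest on all 5 days. The haem-binding liver plasma protein gene hpxa was almost absent on D3, at 0.99, 0.26 and 2.28 CPM, and had 30.6, 58.8 and 37.3 CPM on D5. On D7 it had 0.22, 17.8 and 0.30 CPM, so that its fall after D5 was near complete in a and c and partial in b.

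Members included 3 enzymes of glutamate metabolism: GLS2, the liver-type glutaminase, OAT, ornithine aminotransferase, and OGDH, of the 2-oxoglutarate dehydrogenase complex. OAT had 7.84, 4.17 and 13.4 CPM on D3, 35.4, 23.4 and 21.6 CPM on D4 and 32.6, 46.8 and 35.5 CPM on D5. It had 24.5, 39.1 and 15.7 CPM on D6 and 21.1, 27.7 and 10.5 CPM on D7. GLS2 had 3.89, 1.22 and 2.12 CPM on D3, 20.7, 27.4 and 11.3 CPM on D5 and 13.2, 11.5 and 7.08 CPM on D7. OGDH had 36.0, 34.03 and 68.6 CPM on D3, 58.5, 81.4 and 116 CPM on D5 and 37.0, 37.3 and 70.26 CPM on D7, with D3 c and D7 c above D5 a. SLC13A5, the citrate transporter, and ABCC4, an exporter of organic anions, had D5 means of 13.9 and 50.6 CPM.

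**Figure D3:**
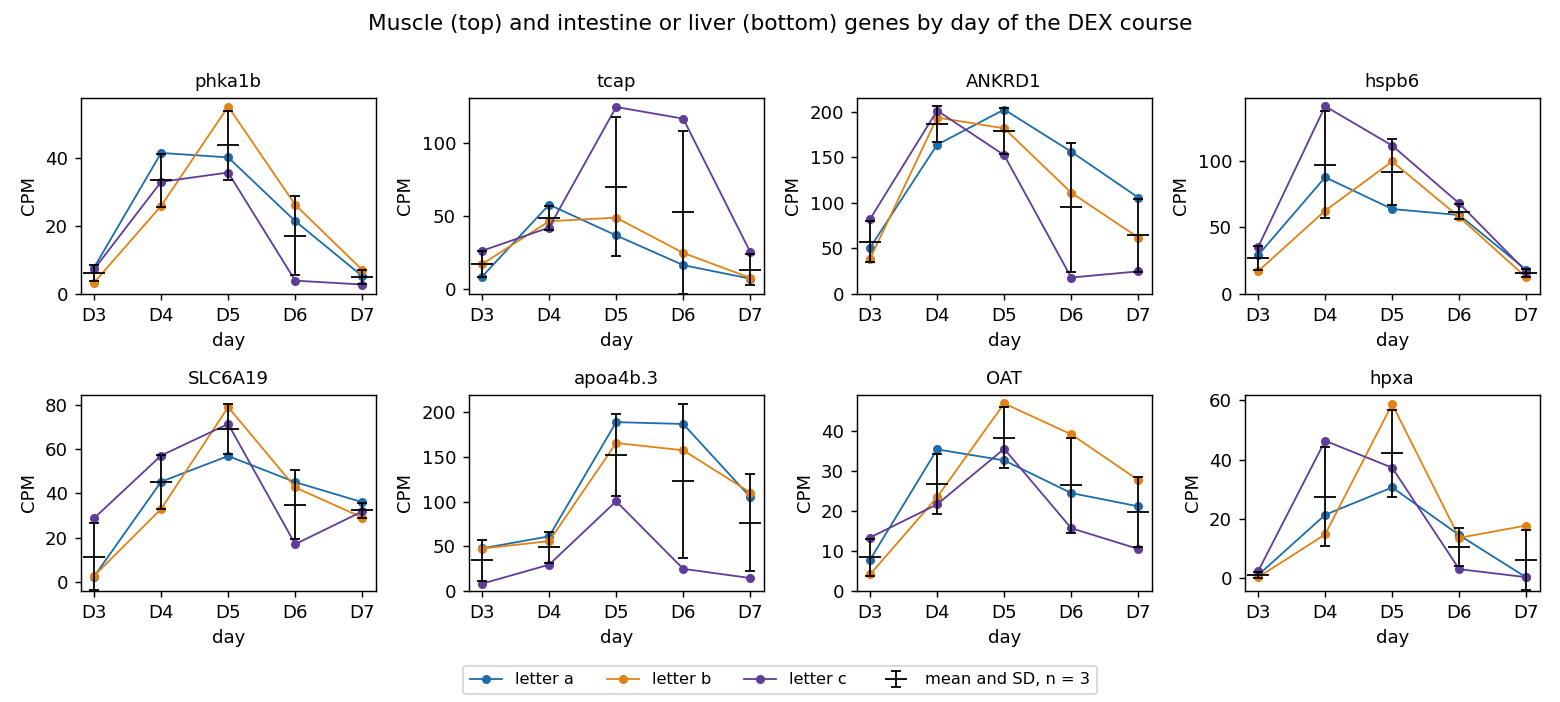
CPM of 4 muscle genes (top) and 4 intestine or liver genes (bottom) by day in the DEX course, with letters a, b and c as coloured points joined by letter and the day mean with its SD (n = 3) in black. On D6, letter c (purple) is below the other letters for phka1b, ANKRD1, SLC6A19, apoa4b.3, OAT and hpxa. It is above them for tcap and, by less, for hspb6.

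The 6 immune or extracellular genes were mostly low. The metalloproteinase inhibitor gene TIMP2 (ENSDARG00000075261) had 11.9 to 12.6 CPM on D3, 10.1 to 15.2 CPM on D4, 155, 23.4 and 22.5 CPM on D5, 7.79, 7.35 and 126 CPM on D6 and 5.11 to 9.86 CPM on D7. Single libraries, D5 a and D6 c, held its high values. The unnamed gene ENSDARG00000114451 had at most 2.76 CPM on D3 and D4, 66.5, 8.98 and 55.6 CPM on D5, 3.05, 7.29 and 482 CPM on D6 and 5.92, 5.41 and 27.6 CPM on D7. In the same D6 c library the neutrophil marker list (12 genes, none at 0) summed to 846 CPM, against 199 and 194 CPM in D6 a and b, and the inflammation list (38 genes, 9 of them at 0 in some library) to 1940 CPM, against 477 and 564 CPM. On D5 the neutrophil list summed to 296, 180 and 293 CPM in a, b and c, and the inflammation list to 582, 456 and 772 CPM. The part of these lists in the values of TIMP2 and ENSDARG00000114451 was not tested.

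The myeloid transcription factor gene spi1a had 2.83 to 3.29 CPM on D3, 6.43, 6.31 and 5.00 CPM on D5 and 3.03 to 3.58 CPM on D7. The cytokine subunit gene ebi3 had 1.58 to 3.97 CPM on D3, 13.5, 13.8 and 9.05 CPM on D5 and 2.78 to 7.60 CPM on D7. D5 means of the secreted proteins lgals3bp.1 and odam and of the cartilage matrix protein CILP2 were 23.3, 9.29 and 8.40 CPM. None of these genes had its D5 libraries within the D3 range.

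The 7 genes with other roles had D5 means of 10.005 to 41.1 CPM. They were TFCP2L1, a transcription factor, arap1a, a regulator of small GTPases, gstk4, of the glutathione transferase kappa family, TMEM41A, a membrane protein, arpp21, a phosphoprotein known from neurons, DUSP23, a phosphatase, and prss60.2, a serine protease. The gstk4 gene had the largest ratio of D5 to D3 means, at 47.9, since its D3 libraries held 0, 0.19 and 0.44 CPM. DUSP23 was highest on D4, with 56.6, 75.9 and 46.3 CPM, followed by 51.7, 38.4 and 31.9 CPM on D5.

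The 18 members without a role had D5 means of 5.72 to 115 CPM. ENSDARG00000117546 was the most abundant of them by mean, with 63.1, 51.7 and 52.0 CPM on D3, 114, 95.0 and 121 CPM on D4 and 102, 131 and 112 CPM on D5. It had 50.1, 57.3 and 26.2 CPM on D6 and 11.3, 14.3 and 15.9 CPM on D7, so that D7 lay below D3 in every library. The gene zgc:153932 had 0.59, 0.19 and 0.92 CPM on D3, 41.6, 27.7 and 15.3 CPM on D4, 26.6, 31.2 and 6.73 CPM on D5 and 5.12, 2.41 and 0.36 CPM on D7. The gene si:dkey-7c18.24 had 77.4, 85.2 and 23.1 CPM on D5 and 86.9, 95.0 and 25.02 CPM on D6, and was highest on D6 in every letter.

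D6 and D4 lie on either side of the peak and were not used by the rule, so the comparison asks on which side the members stood higher. Its p-values are not free of the rule, since their spread came from all 15 libraries, D3, D5 and D7 included. With the D4 and D6 libraries alone 0 members were called, against 1.52% of all genes tested. Few members differed. Of 55 genes, 3 passed the test (1 higher and 2 lower on D6), which is 5.45%, against 6.71% of the 21750 genes tested. This share was near that of all genes. The median log2 fold change of D6 over D4 was -0.03 for members and 0.04 for all genes tested. At an unadjusted p under 0.05 stood 13 members (23.6%), 5 higher and 8 lower on D6, against 22.7% of all genes tested.

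The cholesterol gene CYP51A1 was lower on D6 (log2 fold change -1.55, SE 0.35, adjusted p = 0.0217, edgeR), with 3 of 3 D6 libraries below all D4 libraries. ENSDARG00000117546 was also lower (-1.29, SE 0.27, adjusted p = 0.0163, edgeR), with 3 of 3 libraries below. ENSDARG00000114451 was called higher on D6 (7.40, SE 1.77, adjusted p = 0.027, edgeR), with 3 of 3 D6 libraries above D4, but its mean rests on D6 c. Without that library it was no longer called. The same held without any single D4 library, and in a fit of the D4 and D6 libraries alone. Leaving out D4 c ended the calls of CYP51A1 (adjusted p = 0.0651, edgeR) and ENSDARG00000117546 (adjusted p = 0.0607, edgeR), and so did a fit of the D4 and D6 libraries alone (0.0569 and 0.0959). CYP51A1 was also no longer called without D4 a (adjusted p = 0.073, edgeR) or without D6 a (adjusted p = 0.0528, edgeR). With letters a and b of all days alone, chosen after seeing the data, 17 members were called, 7 higher and 10 lower on D6, and 19.6% of all genes tested were called.

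Other members with lower values on D6 missed the threshold. For the sterol gene MSMO1 the log2 fold change was -0.91 (SE 0.28, adjusted p = 0.073, edgeR). THBS4 stood at -1.24 (adjusted p = 0.0512), TFCP2L1 at -0.92 (adjusted p = 0.0779) and DUSP23 at -1.34 (adjusted p = 0.0937) in the same edgeR fit. These 4 genes passed with DESeq2, and with the letter as a block in edgeR (adjusted p = 0.0399 for MSMO1, 0.0114 for THBS4, 0.0315 for TFCP2L1 and 0.0182 for DUSP23). GPAT3 was at -0.63 and, on the higher side, si:ch211-262h13.5, si:dkey-7c18.24, arpp21 and ENSDARG00000113315 were at 1.56, 1.304, 1.07 and 0.94, with adjusted p = 0.138 to 0.214 in edgeR for these 5 genes. All D6 libraries lay below all D4 libraries for 11 members (20%), against 14.1% of all genes tested, and above for 2 members (3.64%), against 9.66%.

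The cholesterol and fatty acid synthesis list, which held 2 members, gave the setting of the sterol enzymes. CYP51A1 was not among its genes, since its name did not match the symbol in the list. Of 34 list genes tested, 13 were lower and 0 higher on D6 than on D4, where 4.07% of all genes tested were lower, and the median log2 fold change was -0.90, beside 0.04 over all genes. At an unadjusted p under 0.05 the list held 3 higher and 19 lower genes in edgeR, and DESeq2 called 2 higher and 16 lower. Of all 21750 genes, DESeq2 called 1213 higher and 1442 lower. These genes run through much of the route to cholesterol and included HMGCS1, PMVK, MVD, IDI1, FDPS, SQLE (ENSDARG00000079946), LSS, NSDHL, HSD17B7, EBP, SC5D and DHCR7. SQLE, squalene epoxidase, had 27.8, 15.4 and 12.2 CPM on D4 and 16.5, 14.2 and 6.79 CPM on D5. On D6 it had 2.44, 1.95 and 3.19 CPM, a log2 fold change over D4 of -2.76 (SE 0.37, adjusted p = 0.0019, edgeR). LSS, which closes the ring to lanosterol, fell by 2.68 (SE 0.44, adjusted p = 0.0049, edgeR) on the log2 scale.

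Most of these pathway genes were highest on D4. Of 30 list genes that were not members and averaged at least 1 CPM on D5, the highest mean fell on D3 for 2, D4 for 17, D5 for 2, D6 for 4 and D7 for 5. All 13 genes called lower on D6 were highest on D4. By mean, 17 of the 30 stood higher on D5 than on both D3 and D7, and 4 by at least 1.5 times. HMGCS1, an early enzyme of the pathway, had 126, 54.2 and 80.6 CPM on D4, 63.4, 68.0 and 48.5 CPM on D5 and 13.2, 12.3 and 17.7 CPM on D7. The LDL receptor gene ldlra ran otherwise, with 9.75, 8.72 and 22.9 CPM on D3 and its highest values, 48.7, 48.7 and 71.5 CPM, on D7. Fatty acid genes of the list were not called: FASN stood at -0.10, scdb at 0.02 and ACACA at 0.37 on the log2 scale of D6 over D4.

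**Figure D4:**
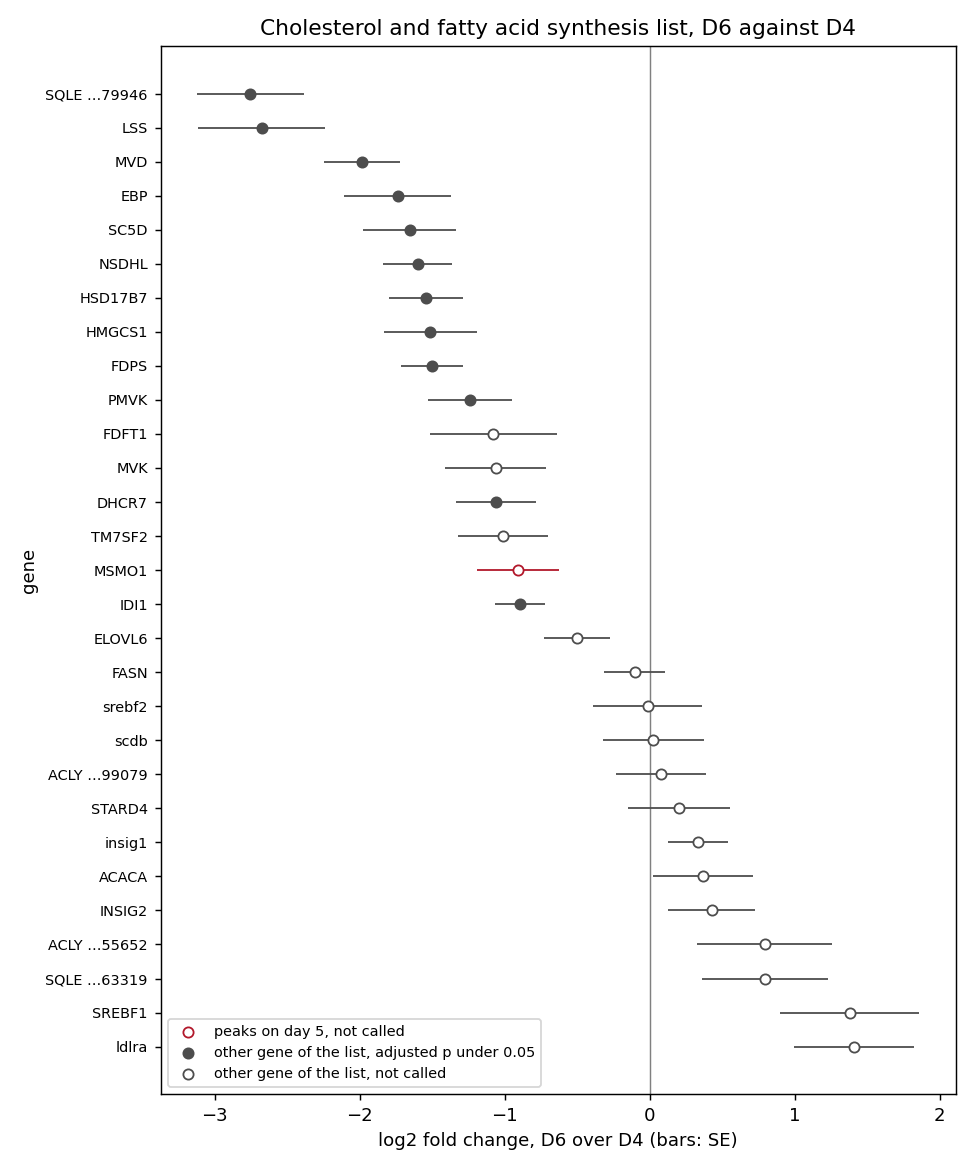
Log2 fold change of D6 over D4 (horizontal axis, bars are SE) for 29 genes of the cholesterol and fatty acid synthesis list that averaged at least 1 CPM on D5, with filled points for an adjusted p under 0.05 in edgeR and a red point for MSMO1, which peaks on day 5. The 12 filled points all lie below 0, and FASN, scdb, ACACA and ldlra lie near or above 0.

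Other lists held few members. Of 35 lists of pathways and cell types, 5 held a member, 6 genes in all, among them hspb6, MSMO1, apoa4b.3, CPT1B and spi1a. CYP51A1 is not counted here, since its name did not match the symbol in the sterol list. The glucocorticoid response list (29 genes) and the circadian clock list (38 genes) held 0 members. Only 55 of the 12762 genes at the CPM floor were members, so 0 in lists of this size says little. Between D6 and D4, 8 glucocorticoid response genes were higher and 1 lower in edgeR, where 2.64% of all genes tested were higher and 4.07% lower. Their summed level averaged 1669, 3094, 5507, 6321 and 5620 CPM from D3 to D7, with no fall back after D5 to the D3 level. The sum does not hold for each gene. Of 28 list genes averaging at least 1 CPM on D5, 6 had their highest mean on D5, beside 7.97% of all genes at the 5 CPM floor. One of the 6, ANGPTL4, averaged 118, 185 and 104 CPM on D3, D5 and D7.

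The second comparison, crispants against WT, asks how these genes stand in larvae with cdkn1a edited. Over all 10 libraries 1 member of 55 passed the test, against 0.168% of the 23222 genes tested. That gene, acss2l, had 3.73, 3.49, 2.27, 5.32 and 5.24 CPM in crispants, against 10.7, 11.4, 8.78, 7.97 and 10.4 CPM in WT. Every crispant lay below every WT library (log2 fold change -1.30, SE 0.21, adjusted p = 0.0416, edgeR). Leaving out any single library other than WT 4 and WT 5 ended this call. Over all 10 libraries 43 of 55 members had a negative log2 fold change, against 52.5% of all genes tested. The median was -0.44, beside -0.02 over all genes. The 2 sets differed in this. In the first set alone 45 members were negative (median -0.56), against 49.9% of all genes tested. In the second set alone 22 were negative (median 0.09), against 50.2%. Of 16 members at an unadjusted p under 0.05 (29.1%, against 11.8% of all genes tested), 14 were lower and 2 higher in crispants.

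WT of the first set averaged more than WT of the second set for 46 of 55 members. The share over all genes was not taken for this count. The sets were split on these same libraries, so a difference in level between them was built in. The count is thus no result about the members. POR, for example, had 80.9, 71.0, 77.0, 61.1 and 66.3 CPM in crispants, against 282, 268, 257, 84.8 and 59.7 CPM in WT, where the last 2 values of each group are the second set. With the set as a block in the model, 16 members were called, 1 higher and 15 lower in crispants (29.1% of members, against 5.84% of all genes).

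Within the first set, 35 members were called, 2 higher and 33 lower in crispants, or 63.6%, against 27.5% of all genes tested. The crispant libraries of this set lay close together, as the marker sums below show. The p-values within it thus measure a narrow spread that may be technical. Lower in crispants of this set were all 8 sterol and lipid genes, by 0.39 to 1.80 on the log2 scale, and 7 of 8 muscle genes, THBS4 being the exception at 0.02. Likewise 6 of 8 intestine, liver and amino acid genes were lower, led by ABCC4, with 15.2, 14.99 and 15.8 CPM in crispants, against 63.4, 72.1 and 52.0 CPM in WT (log2 fold change -1.9999, adjusted p = 1.8e-13, edgeR). GLS2 (-1.67), OAT (-1.47) and OGDH (-0.85) were lower too. The 2 called higher were si:dkey-22f5.9 (2.45) and si:dkey-7c18.24 (0.61). In these libraries the intestine marker list summed to 3364 to 3396 CPM in crispants, against 4351 to 4507 CPM in WT. The liver list (12 genes, none at 0) went the other way, with 6540 to 6568 CPM in crispants, against 5049 to 5478 CPM in WT. The part of either tissue in the lower values was not tested. The skeletal muscle list summed to 76541 to 76695 CPM in crispants, against 73581 to 76209 CPM in WT. The part of muscle content in the values of the muscle members was not tested.

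Within the second set, 9 members were called, 4 higher and 5 lower in crispants, or 16.4%, against 3.06% of all genes tested. The 5 lower were acss2l (-0.79), tcap (-1.40), apoa4b.3 (-0.81), TIMP2 (-1.96) and ENSDARG00000114451 (-5.39). For ENSDARG00000114451, crispants of this set had 2.52 and 4.62 CPM, against 189 and 111 CPM in WT. The neutrophil list there summed to 127 and 116 CPM in crispants, against 683 and 251 CPM in WT, and its part was not tested. The 4 higher were THBS4 (0.70), zgc:154142 (0.82), ENSDARG00000117546 (0.46) and si:dkey-7c18.24 (1.101).

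The difference between the sets was tested as an interaction, a model added after seeing the data. Since the sets were split on these same libraries, the p-values of this model are not free of that split. For 31 of 55 members the crispant change differed between the sets, against 15% of all genes tested. The change was more positive in the second set for 27 of these and more negative for 4. All 8 sterol and lipid genes were among the 27, with a difference of 1.63 for POR and 1.35 for CYP51A1 on the log2 scale. The sign of the edgeR log2 fold change in each set alone was negative in both for 20 members and positive in both for 8. For 25 it was negative in the first and positive in the second, and for 2 the other way. The shares over all genes were not taken for these counts. The gene acss2l was called lower in each set and over all libraries. Also called lower in each set, but not over all libraries, were tcap, TIMP2, apoa4b.3 and ENSDARG00000114451. The gene si:dkey-7c18.24 was called higher in each set. It had 54.1, 49.9, 53.2, 44.2 and 72.8 CPM in crispants, against 36.7, 34.5, 33.5, 28.0 and 26.5 CPM in WT. Over all 10 libraries si:dkey-7c18.24 stood at 0.78 (SE 0.14, adjusted p = 0.0712, edgeR).

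**Figure D5:**
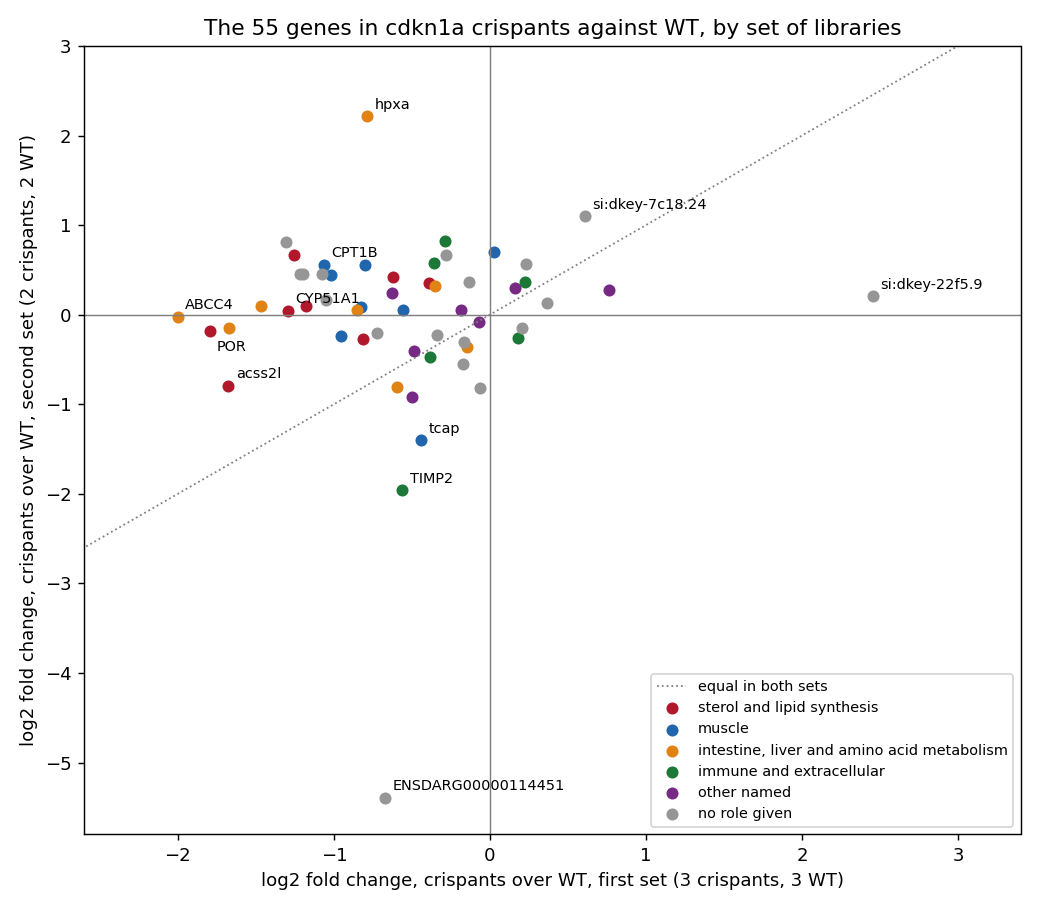
Log2 fold change of crispants over WT for the 55 genes in the first set (horizontal axis, 3 crispants and 3 WT) and in the second set (vertical axis, 2 crispants and 2 WT), coloured by role, with a dotted line where both are equal. Points left of 0 on the horizontal axis and above 0 on the vertical axis are the 25 genes lower in crispants of the first set and higher in those of the second.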

How the data were processed

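The authors trimmed 150-base paired-end reads with Trim Galore, aligned them to GRCz11 with STAR 2.7.8 and counted reads per gene with HTSeq 0.13.5. They deposited raw counts per gene in 2 tables, of 15 and 10 libraries. The annotation release and strand setting are not given in the sources used here, so overlapping or near-identical genes are uncertain. Gene names came from a table of Ensembl identifiers and matched 29201 of 32520 genes.

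Counts were scaled to CPM for the rule, with the column letters taken as the replicate numbers 1, 2 and 3 of the labels. Tests used edgeR 4.0.16 (TMM, filterByExpr, quasi-likelihood test, Benjamini-Hochberg adjustment, threshold 0.05), with all 5 days in 1 model for D6 against D4, and 5 crispants against 5 WT. DESeq2 1.42.0, other size factors, other filters, blocks and left-out libraries were alternatives. Named genes were the 25 members with the largest smallest-letter ratio, members called in a test or held by a list, and the 3 genes on either side of the threshold; others were named after their values were seen. The members and lists were chosen with earlier results of these data known. A promoter search was not run, since no promoter sequence was used here. Some genes are counted among the members and lists but not reported here by name.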

Additional observations from a re-analysis of the deposited data

Results flagged for a closer look

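Of 32 groups of 5 libraries in the crispant table, 2 held a library far from the others. A chance rate of about 1 in 20 would need 5 alike libraries, and each group here spans both sets. Both far libraries were of the second set. In WT, TIMP2 had a library at 37.7 CPM, with the others at 15.5 to 17.3 CPM, and the gap to the nearest was 0.921 of the range. In crispants, ANKRD1 had a library at 23.3 CPM, with the others at 34.2 to 36.5 CPM (0.829 of the range).

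The crispant change differed between the first and the second set for 12 of the 16 members at an unadjusted p under 0.05. This count is not free of the split into sets, which was made on these same libraries. The log2 difference, second set minus first set, was positive for ABCC4 (1.995), ENSDARG00000117546 (1.69), POR (1.63), OAT (1.58), GLS2 (1.54), ANKRD1 (0.93), OGDH (0.93) and acss2l (0.90). It was negative for tcap (-0.94), TIMP2 (-1.38), si:dkey-22f5.9 (-2.23) and ENSDARG00000114451 (-4.70). For the genes with a positive difference the WT libraries of the first set stood above those of the second, except for acss2l, where they overlapped. The gene si:dkey-22f5.9 was low, with 6.27, 5.29 and 8.14 CPM in crispants of the first set and 0.16 and 1.85 CPM in those of the second, against 0.87 to 1.42 CPM in WT.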

How the results depend on the processing

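The number of genes that met the rule was 50 with TMM library sizes (46 of the 55 shared), 47 with DESeq2 size factors (43 shared), 67 with a floor of 1 CPM and 40 with 10 CPM. It was 127 with the lower ratio tried and 12 with 2 times. With 2 letters in place of 3 it ranged from 84 to 250, the 250 being without letter c.

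Members called between D6 and D4 numbered 3 with RLE size factors and with at least 10 counts in every library, and 4 with no filter. Of all genes tested, these fits called 6.60%, 9.02% and 4.40%. The count was 6 with DESeq2, 10.9% of members, against 12.2% of all genes tested. With the D4 and D6 libraries alone it was 0, against 1.52% of all genes. It was 17 with letters a and b alone (added after seeing the data), where 19.6% of all genes were called. It was 0 to 3 when each library was left out in turn, with 2.08% to 7.49% of all genes called. In the last case 1 was called without D4 a and 0 without D4 c. With the letter as a replicate block the count was 8 (2 higher, 6 lower), and 16.0% of all genes were called. The letters were not taken as pairs: same-letter correlations of deviations ran from 0.0725 to 0.749 over 30 pairs, with a mean of 0.422, against a mean of -0.173 between letters, and 6 of 15 libraries were nearest to their own letter.

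Of the sterol list, 7 to 19 genes were lower on D6 in all 13 alternatives, fewest with the D4 and D6 libraries alone. In that fit 193 of all 20680 genes tested were lower. Most list genes were lower with letters a and b alone, where 2299 of all 21643 genes were. Some list genes were called higher on D6, 3 with the letter as a block and 5 with letters a and b alone. With DESeq2 the number was 2, and with at least 10 counts in every library it was 1. Of all genes tested, these fits called 1653, 1942, 1213 and 745 higher.

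Members called between crispants and WT numbered 1 with RLE size factors, no filter, or at least 10 counts. Of all genes tested, these fits called 0.155%, 0.122% and 0.177%. The count was 8 with DESeq2, 16 with the set as a block, 35 in the first set alone and 9 in the second alone. Of all genes tested, these fits called 2.29%, 5.84%, 27.5% and 3.06%. The member count was 0 to 4 when each library was left out, the highest without WT 5. Those fits called 0.0384% to 0.670% of all genes. In the second set alone the log2 fold change turned positive for 23 members and negative for 2. Among the 16 at an unadjusted p under 0.05 it turned positive for OAT (0.0925), ENSDARG00000117546 (0.459), OGDH (0.055), ANKRD1 (0.0806) and musk (0.0472). No paired analysis was possible because the column names of the crispant table repeat numbers.

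The cause of these shifts was not tested. Over the 13 genes followed through the alternatives between D6 and D4 and those 16 between crispants and WT, 356 values kept direction and side of the threshold, 56 passed it, 20 no longer did and 5 turned round. The promoter search was not run. Genes near the 5 CPM floor and those resting on a single library (TIMP2, ENSDARG00000114451) are the least certain.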
